A study of Saccharomyces cerevisiae with 16 samples.

Results

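The step from early to late stationary phase of a wine fermentation, from 92 h to 144 h, was measured in the industrial yeast Saccharomyces cerevisiae Lalvin EC1118. It rests on 8 of the 16 one-colour Agilent expression arrays of the series, the 4 of 144 h and the 4 of 92 h, which were taken by their labelled sampling time. Each time holds 2 arrays of mixed fermentations and 2 of control fermentations. The mixed_92h and mixed_144h groups are S. cerevisiae cells that shared a membrane bioreactor with Dekkera bruxellensis ZIM 701, a spoilage yeast kept on the far side of a dialysis membrane. In the control_92h and control_144h groups the far side held no yeast. All 4 groups used an artificial wine must at 22 degrees C, and the labels name no genetic change or added agent in any of them. The other 8 arrays, of 22 h (exponential phase) and 187 h, enter only where the step is set against the ones before and after it.

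Fermenting yeast takes up the hexoses of the must through a family of plasma membrane transporters, the Hxt proteins, whose members are used at different sugar levels, and turns them into ethanol through glycolysis. High glucose represses the genes for respiration, gluconeogenesis and the use of other carbon sources. When growth ends, cells make fewer ribosomes, draw on stored carbohydrate and switch on genes that serve survival without division. In wine fermentations much of the sugar is known to be consumed by such non-growing cells.

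Of 6256 gene probes, 95.4% to 97.2% were well above background on each of the 8 arrays, and 6082 were kept. All levels below are log2 processed signals relative to the 75th percentile of the same array, and changes are log2 differences, 144 h minus 92 h, with standard errors from limma. A level of 1 gene is not comparable with that of another, since each has its own probe. The 2 arrays of a group differed by a median of 0.116 (control_92h) to 0.207 (mixed_144h). The labels do not say whether same-numbered arrays of 1 kind came from 1 vessel. If they did, the 2 times are paired by vessel, which the main fit leaves out, and a block by vessel gave 1943 genes. If instead the 2 arrays of a group shared a vessel, p-values would measure less than the spread between fermentations. Replicate 1 of every group was on 1 slide and replicate 2 on the other. On both slides the 92 h arrays shared a column, and so did the 144 h arrays, so time and slide column cannot be told apart.

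From 92 h to 144 h, 1694 of 6082 genes (27.9%) changed at an adjusted p under 0.05 in limma. Of these 678 were higher (11.1% of the genes tested) and 1016 lower (16.7%), and 2567 genes had an unadjusted p under 0.05. Rises were fewer but larger. Among the changed genes 84 rose and 14 fell by more than 1 log2 unit, and 11 rose and 0 fell by more than 2. On all 4 arrays of 144 h 597 genes (9.82%) lay above all 4 of 92 h, and 847 (13.9%) lay below. All 1694 changed genes moved the same way on both slides and in both kinds of fermentation, a direction that the mean of the same arrays in part fixes. With the slide as a block 2048 genes passed. The count was 780 without the second control array of 92 h, 796 without the second mixed array of 92 h and 911 without the first control array of 144 h. Rises and falls in these fits were 358 and 422, 381 and 415, and 396 and 515, in that order. List counts given below with 1 array left out are to be read beside these smaller totals. The balance of rises and falls is relative to the scaling: rises were 40% of the calls here, 54.1% with each array scaled to its median, and 16.6% of 368 calls with spike-in scaling, where the median of all genes was -0.355 in place of -0.059. Changes below are therefore relative to the bulk of the genes of each array. With spike-in scaling each gene list named below had 0 to 3 rises, except the hexose transporters (6) and the genes of mannitol and sorbitol use (6). The list medians of the mitochondrial ribosome, the citric acid cycle, amino acid permeases, arginine synthesis, flocculins, stationary phase, peroxisomes, meiosis and mating then turned below 0. In bulk RNA, fewer cells with a transcript and less of it per cell cannot be told apart. Unless a sentence says otherwise, a gene called risen or fallen below also passed with any 1 of the 8 arrays left out.

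Genes of mannitol and sorbitol use were among the largest rises. HXT16, a hexose transporter family member known to carry these sugar alcohols, had levels of -7.56 and -7.72 in mixed and -8.67 and -8.36 in control fermentations at 92 h. At 144 h its levels were -4.62 and -5.28 in mixed and -4.39 and -5.73 in control. All 4 later arrays lay above the 4 earlier ones, by a measured 3.07 ± 0.29 (adjusted p = 0.00111), with the probe well above background on only 2 arrays of 92 h. The mannitol dehydrogenase gene MAN2 stood at -2.84 and -3.13 in mixed and -2.74 and -3.20 in control at 92 h. It reached 0.052 and -1.71 in mixed and 0.70 and -0.55 in control at 144 h, a rise of 2.60 ± 0.40 (adjusted p = 0.00366) that was larger on slide 1 (3.17) than on slide 2 (2.03). Its near-identical copy DSF1 rose by 2.39 ± 0.33, from between -0.44 and -0.18 to between 1.10 and 2.98. HXT15 rose by 2.54 ± 0.35 and HXT17 by 1.77 ± 0.28, and neither overlapped between the times. HXT13 was not well above background on any array of 92 h and was at least 1.10-fold higher at 144 h, where 2 arrays measured it, and it did not pass (adjusted p = 0.0524). The sorbitol dehydrogenase genes SOR1 and SOR2 had changes of 0.44 and 0.45 and did not pass either. Of the 8 genes measured on this list 5 rose (62.5%, against 11.1% of all genes) and 0 fell. The median was 2.22 against -0.059 over all genes, or 2.08 with HXT13 at its bound. With the slide as a block all 8 passed as higher. The median was 0.94 with normexp and quantile normalization, and with only probes well above background on all 8 arrays, which leaves out HXT13, HXT15 and HXT16, 3 rose and the median was 1.77. DSF1 and MAN2, SOR1 and SOR2, and HXT13, HXT15, HXT16 and HXT17 are near-identical within each set, so which copy rose is uncertain by probe. The reading frame without a gene symbol with the largest rise, YNR071C, increased by 3.35 ± 0.29 (10.2-fold, adjusted p = 0.00106) and lies beside HXT17, which in turn lies beside MAN2 in the RefSeq R64 annotation. PDR18, the next gene on the other side of YNR071C, rose by 0.81, a call that ended without the second mixed array of 92 h.

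**Figure D1:**
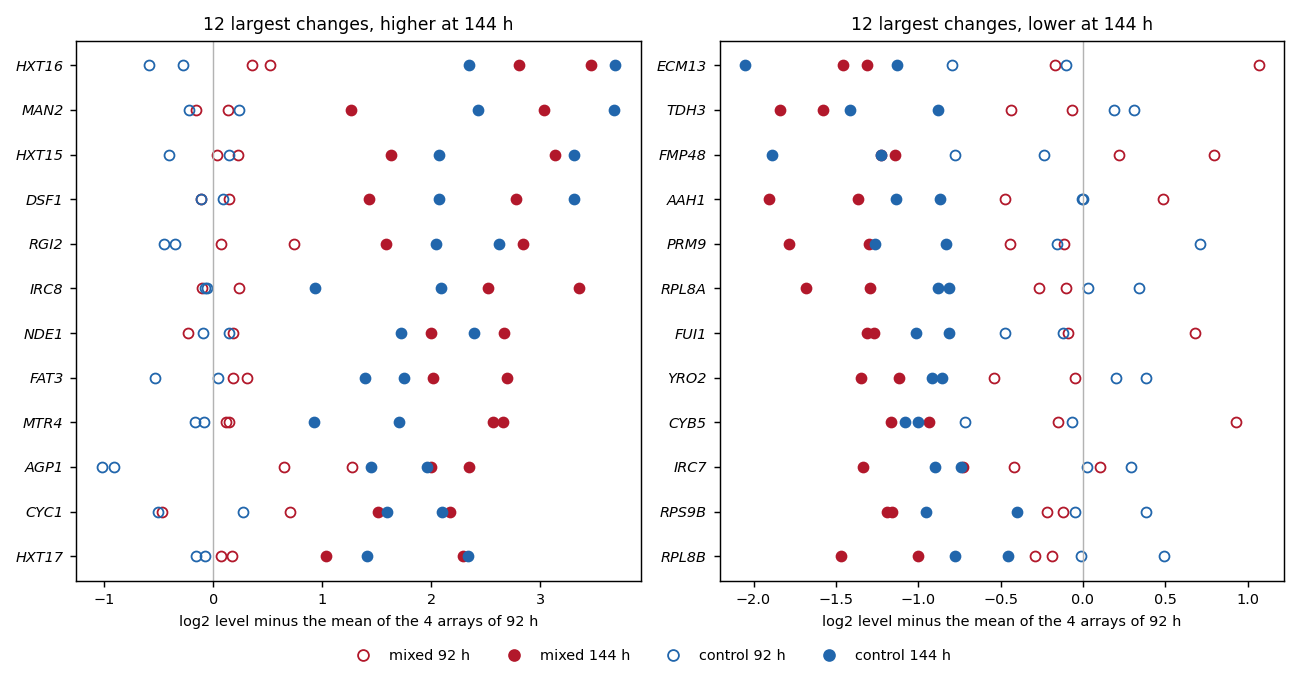
Level of 12 risen and 12 fallen genes on each of the 8 arrays, the largest changes among genes with a symbol whose times did not overlap, as log2 units from the mean of the 4 arrays of 92 h. Open points are 92 h and filled points 144 h, in red for mixed and blue for control fermentations, and the rule for choosing the genes put the filled points of each on 1 side of the open ones.

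Of 25 hexose transporter, sensor and regulator genes 12 rose (48%, against 11.1% of all genes). The 4 falls (16%) were near the 16.7% of all genes. HXT genes of the mannitol and sorbitol list, HXT13 and HXT16 among them, stand on this list as well, so the counts of these lists are not separate. HXT3, a low-affinity transporter of high-glucose growth, lay between 4.53 and 5.11 at 92 h and between 3.68 and 4.68 at 144 h, where 1 mixed array still overlapped. It fell by 0.74 (± 0.21, adjusted p = 0.031), a call that ended without the first mixed array of 144 h, any 1 of the 4 control arrays or the second mixed array of 92 h. HXT4 fell by 0.85 ± 0.21, a call that ended without the first control array of 144 h, and HXT1, the other low-affinity transporter, had a change of -0.39 ± 0.15 that did not pass (adjusted p = 0.0761). The high-affinity transporters HXT6 and HXT7, whose probes cannot be separated, had changes of 0.45 ± 0.11 and 0.40 ± 0.10. Both passed here, did not overlap between times, and no longer passed without the second mixed or the second control array of 92 h. HXT5, known from slow growth, did not pass (0.30 ± 0.21, adjusted p = 0.295). Among the regulators RGT1, the repressor of HXT genes, rose by 0.91 ± 0.14, while its partner STD1 (-0.53) and the glucose repressor gene MIG1 (-0.38) fell. The list's median change was 0.45. The falling count was 2 without the first control array of 144 h. Without the probes that were not well above background on all 8 arrays, 8 rose and the median was 0.28, as it also was with normexp and quantile normalization.

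**Figure D2:**
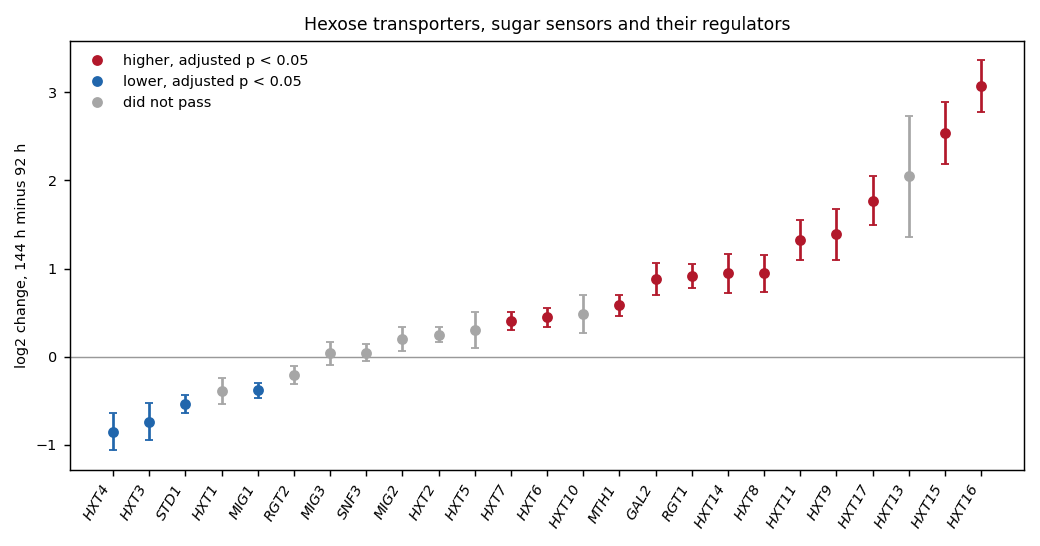
Log2 change from 92 h to 144 h of the 25 hexose transporter, sensor and regulator genes, ordered by size, with the standard error of the limma fit over 8 arrays as bars. Red genes were higher, blue genes lower and grey genes did not pass. HXT16 is at 3.07 and HXT4 at -0.85, and HXT11 and HXT13, well above background on no array of 92 h, have only a bound on their size.

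Genes for other sugars were among the rises. MAL31, the maltose transporter, went from 1.13 and 0.85 in mixed and 1.17 and 0.85 in control fermentations to 2.16 and 2.01 in mixed and 2.22 and 1.95 in control. The arrays of the 2 times did not overlap, and the rise was 1.08 ± 0.11 (adjusted p = 0.00157). The isomaltase genes IMA2, IMA3 and IMA4 rose by 1.07, 1.04 and 1.05, and their probes cannot be told apart with certainty. MAL32, a maltase, had a change of 0.80 ± 0.30 that did not pass (adjusted p = 0.0701), and the invertase gene SUC2 had one of -0.08 ± 0.15 (adjusted p = 0.72). Of the 12 genes of maltose and sucrose use 6 rose (50%, against 11.1% of all genes) and 0 fell, with a median of 0.80. With the slide as a block 9 rose, and with normexp and quantile normalization the median was 0.46.

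Genes of the respiratory chain rose in 23 of 42 cases (54.8%, against 11.1% of all genes). NDE1, the external NADH dehydrogenase of mitochondria, had levels of -2.54 and -2.95 in mixed and -2.57 and -2.82 in control at 92 h. At 144 h these were -0.049 and -0.73 in mixed and -0.33 and -0.998 in control. The 2 times were separated on every array and the rise was 2.19 ± 0.20 (4.57-fold, adjusted p = 0.00106). CYC1, the main cytochrome c, rose by 1.84 ± 0.28 from levels of -0.46 to 0.75 to levels of 1.55 to 2.22. The lactate dehydrogenase gene CYB2, whose enzyme passes electrons to cytochrome c, rose by 1.76 ± 0.22, again without overlap. QCR9 (0.72 ± 0.08) and QCR8 (0.77 ± 0.08), both subunits of the cytochrome bc1 complex, rose with narrow errors. Of the 42 genes on the list 23 rose and 0 fell, with a median of 0.37, and the count was 15 without the second control array of 92 h. Rises over all genes were then 358 in place of 678. Grouped by complex after their values were seen, 8 of 9 cytochrome bc1 genes (median 0.63) and 8 of 9 cytochrome c oxidase genes (median 0.68) rose. Of 14 ATP synthase genes 0 passed, and their changes ran from -0.07 to 0.29 with a median of 0.16. With spike-in scaling the list median was 0.07 and 3 genes of the list rose. RGI2 and RGI1, genes induced in respiratory growth, rose by 2.27 ± 0.30 and 1.10 ± 0.12, and all 4 arrays of 144 h lay above those of 92 h for both.

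Genes that feed respiration from ethanol, acetate and lactate were also among the rises. JEN1, the lactate transporter, rose by 0.92 ± 0.11, from levels of -1.53 to -1.03 to levels of -0.42 to -0.25. The acetate transporter gene ADY2 rose by 1.07, ATO3, a transporter of the same family, by 0.66 and ACS1, an acetyl-CoA synthetase, by 0.50. ADH2, the alcohol dehydrogenase that oxidises ethanol, lay between -2.04 and -1.14 at 92 h and between -0.98 and -0.75 at 144 h. Its rise of 0.88 ± 0.18 (adjusted p = 0.0101) was small beside its rise of 3.67 from 22 h to 92 h. ADH1, the fermentative enzyme, had a change of 0.19 ± 0.11 that did not pass (adjusted p = 0.206). Of 19 genes of the glyoxylate cycle and gluconeogenesis 12 rose (63.2%, against 11.1% of all genes) and 1 fell, with a median of 0.46. The one that fell, the cytosolic malate dehydrogenase gene MDH2 (-0.60), no longer passed without the first control array of 144 h or the second mixed or control array of 92 h. With spike-in scaling 0 of the 19 rose and the median was 0.16. In the citric acid cycle 3 of 17 genes rose (17.6%) and 2 fell (11.8%), against 11.1% and 16.7% of all genes. The median was 0.08, and -0.04 without the first mixed array of 92 h. Among these genes were the citrate synthase gene CIT3 (0.97) and the succinyl-CoA ligase gene LSC2 (-0.57). The falling count was 4 without the first mixed array of 144 h and 1 without each other array but the second control array of 144 h. Of 71 genes for proteins of the mitochondrial ribosome 11 rose (15.5%, near the 11.1% of all genes) and 0 fell. The median was 0.12, and MRPS17 (0.91) and RSM7 (0.63) led the rises. The rises were 3 to 6 without either array of control_92h, either array of mixed_92h or the first array of control_144h. Over all 6082 genes they were 358 to 518 in these fits. Genes of fatty acid use included the peroxisomal catalase CTA1 (0.91), the lipase LPX1 (0.96) and the carnitine carrier CRC1 (1.01), which rose. The fatty acid uptake gene FAT3 rose by 1.96 ± 0.18. Among the 48 genes of peroxisomes and beta-oxidation 10 rose (20.8%) and 5 fell (10.4%), with a median of 0.04. Leaving out single arrays gave 5 to 9 rises and 2 to 5 falls.

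Some of the genes of glycolysis fell. TDH3, the main glyceraldehyde-3-phosphate dehydrogenase, had levels of 2.39 and 2.76 in mixed and 3.01 and 3.13 in control fermentations at 92 h. At 144 h these were 0.99 and 1.25 in mixed and 1.41 and 1.95 in control. The arrays did not overlap and the fall was -1.43 ± 0.14 (adjusted p = 0.00111), on a log2 scale, or 2.69-fold. Its paralogue TDH2 fell by 0.62, the enolase gene ENO2 by 0.54 and GPP1, an enzyme of glycerol formation, by 0.81. Of 29 genes from glucose to ethanol and glycerol 0 rose and 10 fell (34.5%, against 16.7% of all genes), and 8 had a change above 0. The median was -0.29, -0.18 without the second mixed array of 92 h and -0.16 with normexp and quantile normalization. With each array scaled to its median 2 of them rose and 9 fell.

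**Figure D3:**
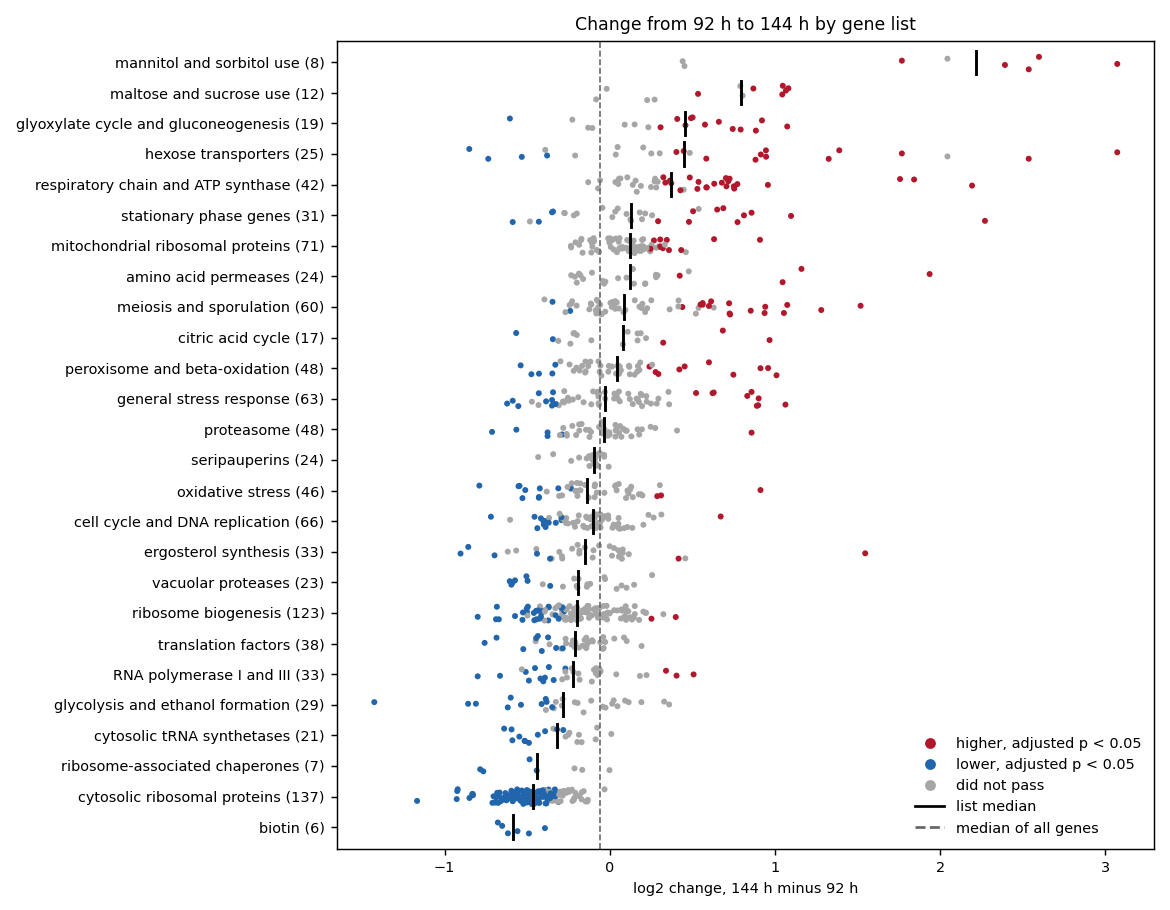
Log2 change from 92 h to 144 h of each measured member of 26 gene lists, with the number of members in brackets. Red points were higher and blue points lower at an adjusted p under 0.05, grey points did not pass, black bars are list medians and the dashed line is the median of all genes, -0.059. The cytosolic ribosomal protein genes all lie below 0, with a median of -0.47.

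Most genes of the cytosolic ribosome fell. All 137 genes for proteins of the cytosolic ribosome had a change below 0, from -1.17 to -0.03, and 78.1% of them passed as lower, against 16.7% of all genes, while 30 did not pass and 0 passed as higher. The median was -0.47, near the same on slide 1 (-0.48) and slide 2 (-0.46), and -0.51 in mixed and -0.40 in control fermentations. The number lower was 56 without the second control array of 92 h, 65 without the first control array of 144 h and 66 without the second mixed array of 92 h, and 52 with spike-in scaling, where the median was -0.76. Falls over all genes were 422, 515, 415 and 307 in these fits, in that order, in place of 1016. RPL8A, of the large subunit, stood at 0.38 and 0.21 in mixed and 0.51 and 0.82 in control at 92 h. At 144 h it stood at -0.81 and -1.20 in mixed and -0.40 and -0.34 in control, so that all 4 later arrays lay below all 4 earlier ones, by -1.17 ± 0.12 (adjusted p = 0.00157). Its copy RPL8B (-0.92 ± 0.15) and RPS9B of the small subunit (-0.93 ± 0.14) were also among the 12 largest falls of genes with a symbol whose times did not overlap. RPL3, a large subunit protein gene, fell by 0.60 ± 0.12, with overlap between a mixed array of 92 h and 2 control arrays of 144 h. Large subunit genes (62 of 81 lower, median -0.46) and small subunit genes (45 of 56 lower, median -0.48) had similar values. For 22 of the 137 (16.1%) all 4 arrays of 144 h lay below all 4 of 92 h, near the 13.9% of all genes.

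Some genes of other parts of the protein synthesis machinery fell as well. Against 16.7% of all genes, the share lower was 57.1% for ribosome-associated chaperones and 52.4% for cytosolic tRNA synthetases. It was 33.3% for RNA polymerases I and III, 23.7% for translation factors and 22% for ribosome biogenesis, the last 2 nearer the share of all genes. Of 7 chaperone genes of the ribosome 4 fell and 0 rose (median -0.44), including SSB2 (-0.79 ± 0.12) and SSB1 (-0.77 ± 0.13), near-identical Hsp70 genes whose products bind new chains. Of 21 genes for cytosolic tRNA synthetases 11 fell and 0 rose (median -0.32), with the seryl enzyme gene SES1 (-0.64) and the phenylalanyl enzyme gene FRS1 (-0.59) leading. Among 38 translation factors 9 fell and 0 rose (median -0.21), with the elongation factor 2 gene EFT1 at -0.69 and its near-identical copy EFT2 at -0.52. Of 123 ribosome biogenesis genes 27 fell and 2 rose (median -0.20), with the snoRNP protein genes NOP58 (-0.80) and NOP56 (-0.53) and the helicase gene PRP43 (-0.57) among the falls. Of 33 RNA polymerase I and III genes 11 fell and 3 rose (median -0.22). The polymerase I subunit genes RPA49 (-0.80) and RPA43 (-0.67) were lower, whereas RET1 (0.51), the second largest subunit of polymerase III, was higher. With normexp and quantile normalization the medians of the last 2 lists were -0.11 and -0.14. Their medians were -0.31 and -0.33 in mixed but -0.07 and -0.09 in control fermentations, against -0.08 and -0.04 over all genes. For translation factors the medians were -0.26 in mixed and -0.14 in control, and for tRNA synthetases -0.30 and -0.31. No list was tested for a difference between kinds. These counts were sensitive to single arrays. So were the falls over all 6082 genes, 422 without the second control array of 92 h and 415 without the second mixed one. Without the second control array of 92 h the falls were 5 for the tRNA synthetases, 5 for the translation factors, 8 for ribosome biogenesis and 4 for the polymerases, and without the second mixed array of 92 h they were 6, 5, 7 and 5. Without the first control array of 144 h they were 6, 5, 16 and 6, and leaving out the first mixed array of 92 h gave 7 for the tRNA synthetases, 9 for ribosome biogenesis and 6 for the polymerases. Without the second mixed array of 144 h they were 13 for ribosome biogenesis and 5 for the polymerases, and without the first they were 6 for the polymerases. The 2 rises in ribosome biogenesis were 0 without the first control array of 144 h or either second array of 92 h, and 1 without the first control array of 92 h or the second of 144 h.

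Amino acid uptake changed in a few genes. AGP1, a permease of broad range, stood at 2.88 and 3.50 in mixed and at 1.20 and 1.32 in control fermentations at 92 h. At 144 h it stood at 4.57 and 4.22 in mixed and at 4.18 and 3.67 in control. The rise was 1.94 ± 0.29 (adjusted p = 0.00342), 1.21 in mixed and 2.67 in control. TAT1, a permease of valine, leucine and tyrosine, rose by 1.16 ± 0.17, the proline permease gene PUT4 by 1.05 and the methionine permease gene MUP1 by 0.42. Of 24 amino acid permease genes these 4 rose (16.7%, against 11.1% of all genes) and 0 fell, with a median of 0.12. GAP1, the general permease, had a change of -0.04 ± 0.19 (adjusted p = 0.91). Among 37 genes under nitrogen catabolite repression 4 rose (10.8%) and 5 fell (13.5%), near the 11.1% and 16.7% of all genes. The rises included PUT4 and the ammonium permease gene MEP3 (0.69), and the falls included the GABA transaminase gene UGA1 (-0.56). The falls were 2 or 3 without 5 of the single arrays, namely both first arrays of 92 h, the first control array of 144 h, the second mixed array of 144 h and the second control array of 92 h. MEP2 (0.06 ± 0.17), DAL80 (0.27 ± 0.17), DAL5 (-0.44 ± 0.18) and the serine deaminase gene CHA1 (-0.45 ± 0.21) did not pass. The lists of amino acid synthesis had medians between -0.25 (lysine, 9 genes) and 0.24 (arginine, 10 genes). Single genes in them included the glutamate dehydrogenase GDH3, which rose by 1.15 ± 0.18, and the chorismate mutase ARO7 (-0.63) and LYS9 (-0.71), which fell. IRC7, a beta-lyase gene known for releasing volatile thiols in wine, fell by 0.93 ± 0.16 without overlap between times.

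Genes for the salvage and uptake of bases were among the largest falls. AAH1, the adenine deaminase, had levels of 0.69 and -0.27 in mixed and 0.21 and 0.20 in control at 92 h, and of -1.16 and -1.69 in mixed and -0.65 and -0.92 in control at 144 h. It fell by 1.32 ± 0.22 (adjusted p = 0.00542) without overlap, after a rise of 1.72 from 22 h to 92 h. FUI1, the uridine permease, fell by 1.10 ± 0.23 (adjusted p = 0.01), and its neighbour ECM13, of no known function, by 1.49 ± 0.31 (adjusted p = 0.0105). ECM13 ranged widely at 92 h, from -0.43 to 1.43, and lay between -1.69 and -0.77 at 144 h. Of 23 purine genes 1 rose (4.3%) and 5 fell (21.7%), and of 12 pyrimidine genes 2 rose (16.7%) and 3 fell (25%). Over all genes 11.1% rose and 16.7% fell, so the falls on these short lists were near the share of all genes. The purine falls were 4 without the first control array of 92 h and 1 to 3 without any other single array. The pyrimidine falls were 1 without the first control array of 144 h, either mixed array of 92 h, the second mixed array of 144 h or the second control array of 92 h. The pyrimidine rises were 0 without either second array of 92 h and 1 without either first control array.

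Genes of biotin use fell. All 6 measured genes of biotin use were lower (100%, against 16.7% of all genes), with a median of -0.59. Among them were the biotin ligase gene BPL1 (-0.62 ± 0.09, adjusted p = 0.00354) and BIO4 (-0.68 ± 0.15, adjusted p = 0.0124). The times overlapped in each, however: every array of 144 h lay below every array of 92 h for 0 of the 6, against 13.9% of all genes. BIO4 lay between -0.04 and 0.94 at 92 h and between -0.66 and 0.02 at 144 h, where 1 control array of 144 h lay above 1 mixed array of 92 h. Without the second mixed or the second control array of 92 h 3 of the 6 passed. Of 22 thiamine genes 6 fell (27.3%) and 2 rose (9.1%), with a median of -0.17, against 16.7% and 11.1% of all genes. The thiamine pyrophosphokinase gene THI80 (-0.69) and PHO3 (-0.74), an acid phosphatase gene regulated by thiamine, were among the falls. The falls were 3 without the first control array of 144 h or the second control array of 92 h. The rises were 1 without the first control array of 92 h and 0 without any other single array but the second mixed array of 144 h. SNZ1, of vitamin B6 synthesis, had a change of -0.20 ± 0.16 (adjusted p = 0.362).

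Genes named for stationary phase rose in part, while general stress genes split evenly. Of 31 stationary phase genes 10 rose (32.3%) and 4 fell (12.9%), against 11.1% and 16.7% of all genes (median 0.13). Besides RGI1 and RGI2, SPG5, which has a role at the proteasome in stationary phase, rose by 0.86 and SPG1 by 0.81. The falls were 0 without the second mixed or the second control array of 92 h, and 1 or 2 without either first control array or either second array of 144 h. Of 63 general stress genes 9 rose (14.3%) and 9 fell (14.3%), near the shares of all genes. Their median of -0.03 turned to 0.01 and 0.03 without the first mixed array of 144 h and the second mixed array of 92 h. It also turned above 0 with median, quantile and normexp scaling (0.03, 0.001 and 0.01). Risers included TMA10 (1.06) and the mitochondrial pyruvate carrier gene MPC3 (0.89). The disaggregase gene HSP104 fell by 0.62, while HSP26, a small heat shock protein, fell by 0.43 ± 0.11, a call that ended without either control array of 92 h, the second mixed array of 92 h or the first control array of 144 h. HSP30, a plasma membrane protein gene, fell by 0.39 ± 0.11, a call that ended without any single array but the first mixed array of 92 h and the second mixed array of 144 h. HSP12 (-0.28 ± 0.33), the catalase gene CTT1 (0.18 ± 0.16) and YHB1 (-0.38 ± 0.16) did not pass. The list's falls reached 15 when the first mixed array of 92 h was left out, and were 2 without either second array of 92 h, 3 without either first control array, and 5 without the first mixed or the second control array of 144 h. Of 37 heat shock genes 3 rose (8.1%) and 8 fell (21.6%), near the 11.1% and 16.7% of all genes (median -0.09). The chaperone gene of the endoplasmic reticulum KAR2 rose by 0.83 ± 0.18, and its cytosolic relative SSA2 fell by 0.60 ± 0.10 and HSP82 by 0.59. In oxidative stress 3 of 46 genes rose (6.5%) and 10 fell (21.7%), with a median of -0.14. The thioredoxin peroxidase genes TSA2 (-0.79) and DOT5 (-0.55) were among the falls. Without the first control array of 144 h or either second array of 92 h the falls were 3 in the heat shock list and 6 in the oxidative stress list. The heat shock falls were also 3 without the first control array of 92 h and 5 without the second of 144 h, where its rises were 6. The oxidative stress rises were 1 without either mixed array of 92 h, the first mixed array of 144 h or the second control array of 92 h.

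Recycling of proteins and organelles did not move as 1 group. Of 31 autophagy genes 4 rose (12.9%) and 5 fell (16.1%), near the 11.1% and 16.7% of all genes. The median was -0.05, and 0.005 with median scaling. The falls were 1 to 3 without any single array but the second mixed array of 144 h. The rises were 1 or 2 without any array of 92 h or the first control array of 144 h. ATG8, which coats the autophagosome, lay at 1.83 and 1.75 in mixed and 1.51 and 1.51 in control at 92 h, and at 2.45 and 2.50 in mixed and 1.82 and 1.80 in control at 144 h. The later arrays were higher within each kind and overlapped between kinds, and the rise was 0.49 ± 0.10 (adjusted p = 0.00873), while ATG3 fell by 0.46. Of 23 vacuolar protease genes 0 rose and 7 fell (30.4%, median -0.20), including YSP3 (-0.60) and the carboxypeptidase Y gene PRC1 (-0.51). PRB1, proteinase B, had a change of 0.26 ± 0.23 (adjusted p = 0.423). Of 48 proteasome genes 1 rose (2.1%) and 5 fell (10.4%). There the falls were 2 without the first control array of 144 h or the second mixed array of 92 h and 3 without the second control array of 92 h, and the rises were 4 without the first mixed array of 144 h.

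At the cell surface the flocculin FLO11, an adhesin of biofilms, rose by 0.88 ± 0.17 (adjusted p = 0.00803), and FLO1 and FLO5 rose by 0.62 and 0.80. FLO11 levels were -4.30 and -3.58 in mixed and -3.09 and -2.66 in control at 92 h, and -2.91 and -3.30 in mixed and -1.96 and -1.94 in control at 144 h. The later arrays were higher within each kind, and the mixed arrays of 144 h overlapped the control arrays of 92 h. Of 12 flocculin genes these 3 rose (25%, against 11.1% of all genes) and 0 fell. The rises were 5 without the second mixed array of 144 h, with the slide as a block, and with quantile or normexp normalization. Among 19 cell wall mannoprotein genes 4 fell (21.1%), among them TIR1 (-0.57 ± 0.10) and TIR3 (-0.72), and 2 rose (10.5%). One of the 2, SPI1, rose by 0.62 ± 0.15, a call that ended without the first control array of 144 h. The falls were 2 without the second control array of 92 h. The rises were 0 without the first control array of 144 h and 1 without any other single array but the first control array of 92 h. Of 24 seripauperin genes 0 passed, with 24 changes below 0 and a median of -0.09 that turned to 0.06 and 0.05 without the first mixed array of 144 h and the second mixed array of 92 h. The medians were -0.30 in mixed and 0.09 in control, and PAU5 had -0.06 ± 0.21 (adjusted p = 0.855). Hypoxic genes fell in 7 of 20 cases (35%, against 16.7% of all genes) and rose in 3 (15%, against 11.1%), with a median of -0.16. The anaerobic mitochondrial ADP/ATP carrier gene AAC3 (-0.79), the hypoxic translation factor gene ANB1 (-0.76) and HEM13 (-0.62) fell, and CYC7 (0.54) rose. The falls were 4 without the first array of mixed_144h, the first of control_144h or the second of mixed_92h.

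Sterol genes included 1 of the clearest rises. HMG1, an HMG-CoA reductase, had levels of -0.42 and -0.39 in mixed and -0.23 and -0.81 in control at 92 h, and of 1.32 and 1.15 in mixed and 0.90 and 0.96 in control at 144 h. The arrays of the 2 times stood apart and the rise was 1.55 ± 0.13 (adjusted p = 0.00105). Of 33 genes of ergosterol synthesis and uptake 2 rose (6.1%, against 11.1% of all genes) and 5 fell (15.2%, against 16.7%). The median was -0.15, with ERG6 (-0.70) and SUT2 (-0.90) lower. This median differed in sign between slide 1 (-0.36) and slide 2 (0.02), and was -0.20 in mixed and -0.04 in control fermentations. The falls were 2 without 5 of the single arrays, those being the first of mixed_144h, both of control_92h, the first of control_144h and the second of mixed_92h. The rises were 1 without either array of control_92h. CYB5, the cytochrome b5 that serves sterol and lipid enzymes, fell by 1.05 ± 0.26 (adjusted p = 0.0188). The plasma membrane proton pump gene PMA1 fell by 0.63 ± 0.09, from levels of 3.21 to 3.44 to levels of 2.61 to 2.82. YRO2, a plasma membrane protein gene, fell by 1.06 ± 0.12 and its relative MRH1 by 0.44. PDR12, the weak acid exporter, had a change of -0.22 ± 0.13 (adjusted p = 0.237).

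Genes of meiosis and sporulation rose in 16 of 60 cases (26.7%) and fell in 2 (3.3%), against 11.1% and 16.7% of all genes. Their median was 0.09. The falls were 0 without either second array of 92 h and 1 without either first array of 92 h, the first control array of 144 h or the second mixed array of 144 h. OSW1, needed for the outer spore wall, rose by 1.52 ± 0.22, and the meiotic kinase genes MEK1 by 0.85 and IME2 by 1.05 ± 0.22 (adjusted p = 0.0109). IME2 levels overlapped between times. They were -3.10 and -3.73 in mixed and -3.91 and -4.23 in control at 92 h, and -1.66 and -2.25 in mixed and -3.22 and -3.61 in control at 144 h. IME1, the master regulator above IME2, had a change of -0.07 ± 0.15 (adjusted p = 0.744), and the spore wall gene SPS100 one of 0.01 ± 0.30 (adjusted p = 0.977). Of 41 mating genes 10 rose (24.4%), with FIG1 (1.41 ± 0.16) first, and 4 fell (9.8%), with PRM9 (-1.29 ± 0.20) first. The falls were 1 or 2 with 6 of the single arrays left out. Of 66 cell cycle and replication genes 1 rose (1.5%) and 12 fell (18.2%, near the share of all genes), with a median of -0.10. The ribonucleotide reductase gene RNR2 fell by 0.72, and the falls were 3 without the second control array of 92 h, 4 without the second mixed array of 92 h and 7 without the first control array of 144 h. The rises were 0 without the second mixed array of 92 h and 2 without the first mixed or the second control array of 144 h. None of 11 histone genes passed, with HHT1 at -0.28 and HTA2 at -0.21, although 1 fell without the second mixed array of 144 h and 2 without the second control array of 144 h.

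A pair of neighbouring genes rose together. MTR4, the RNA helicase of nuclear RNA surveillance, stood at 0.10 and 0.07 in mixed and -0.13 and -0.21 in control at 92 h. At 144 h it stood at 2.61 and 2.52 in mixed and 1.66 and 0.88 in control, a rise of 1.96 ± 0.23 (3.89-fold, adjusted p = 0.00181) without overlap. IRC8, of no known function and next to MTR4 in the R64 annotation, rose by 2.22 ± 0.33, from levels of -3.86 to -3.52 to levels of -2.82 to -0.39. For both genes the mixed arrays of 144 h were above the control arrays of 144 h. In limma 0 of 6082 genes passed the test of mixed against control at 144 h (smallest adjusted p = 0.2). The exosome subunit gene RRP46 fell by 0.56. Among the 42 genes of nuclear transport and mRNA turnover on the list with MTR4, 4 rose (9.5%) and 7 fell (16.7%). These shares were near the 11.1% and 16.7% of all genes. The list's median of -0.02 turned to 0.003 without the second mixed array of 144 h. Without the second control array of 92 h or the first of 144 h 1 rose and 3 fell, without the second mixed array of 92 h 2 rose and 2 fell, and without the first 2 rose. With median, quantile and normexp scaling the median was 0.04, 0.04 and 0.01. FMP48, a mitochondrial kinase gene, fell by 1.37 ± 0.21.

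Several reading frames without a symbol changed as much. YJL032W rose by 2.75 ± 0.31 and YHR033W by 2.33 ± 0.31, and YGR035C fell by 1.82 ± 0.16, YLR235C by 1.36 ± 0.11 and YLR171W by 0.90 ± 0.10. YGR035C levels were 0.24 and -0.54 in mixed and -0.78 and -0.94 in control at 92 h, and -2.20 and -2.07 in mixed and -2.51 and -2.52 in control at 144 h, a 3.53-fold fall. Identifiers absent from the RefSeq table made up 14.7% of the risen genes (100 of 678), 3.1% of the fallen ones (32 of 1016) and 6.8% of all genes tested. Some probes were measured at 1 time only. CSM4, a meiosis gene, was not well above background on any array of 92 h, and was at least 2.19-fold higher at 144 h (adjusted p = 0.00179). By the same measure YGL188C was at least 2.11-fold and HXT11 at least 1.33-fold higher, and YPR014C at least 2.36-fold lower. These bounds set the mean of the measured time against the dimmest signal that counts as well above background on each array of the other, or the probe's own where that was brighter.

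No gene passed the test of a difference in the step between the 2 kinds of fermentation. With the difference of the steps as the test, 0 of 6082 genes passed in limma, 106 had an unadjusted p under 0.05 and the smallest adjusted p was 0.112. Taken alone, the step passed for 355 genes (5.84%) in mixed fermentations, 168 higher and 187 lower, and for 45 (0.74%) in control fermentations, 37 higher and 8 lower. These counts rest on 2 arrays against 2 and moved with single arrays, from 0 to 229 in mixed and from 0 to 80 in control, with 0 in mixed without its first array of 92 h and 0 in control without its second. Of the 1694 genes that changed over both kinds, the change was larger in size in mixed for 411 of 678 rises (60.6%) and 787 of 1016 falls (77.5%), against 3799 of all 6082 genes (62.5%). The median step of all genes was -0.08 in mixed and -0.04 in control, and these shares were not adjusted for that shift. YBR209W had the smallest p of the difference. Its levels were -8.69 and -9.17 in mixed and -7.74 and -7.70 in control at 92 h, and -7.96 and -7.65 in mixed and -8.92 and -8.86 in control at 144 h. The step was 1.12 in mixed and -1.17 in control, a difference of 2.29 ± 0.26, but these levels are near background, where only 2 arrays of each time were well above it. KCC4, a kinase gene of the bud neck, had steps of 1.37 and 0.10, AGP1 of 1.21 and 2.67, OSW1 of 0.96 and 2.07, YGL138C of 0.36 and 1.40 and LOH1 of 0.05 and 0.83, in mixed and control in that order. All had an adjusted p of 0.999 for the difference.

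**Figure D4:**
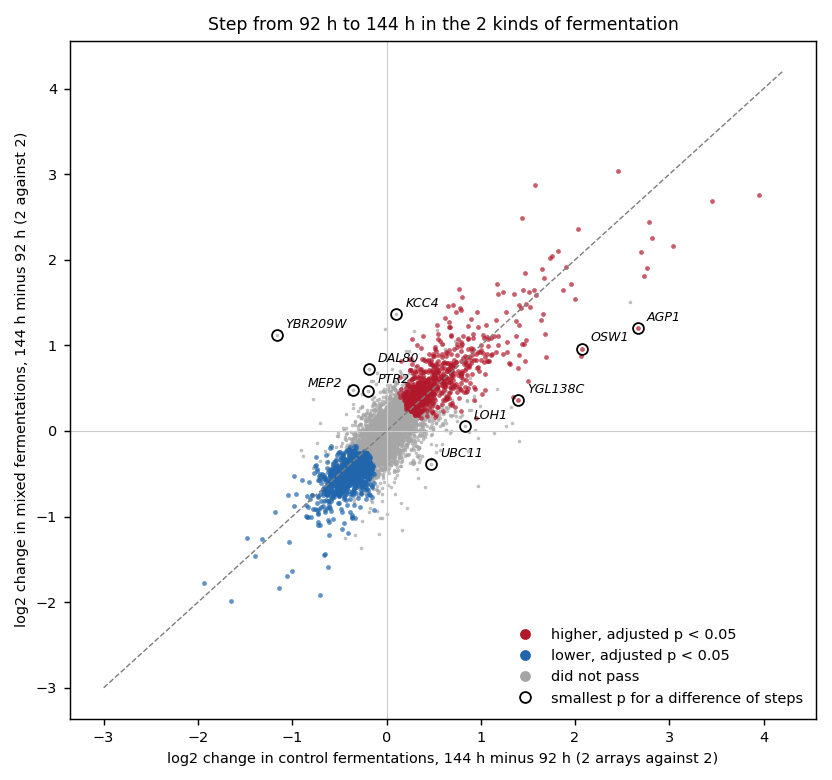
Log2 change from 92 h to 144 h in mixed (vertical) against control fermentations (horizontal) for 6082 genes, each from 2 arrays against 2. Red and blue points were higher and lower over both kinds, grey points did not pass, the dashed line marks equal changes and circles mark the 10 genes with the smallest p for a difference. YBR209W, at 1.12 in mixed and -1.17 in control, lies farthest from the line.

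Across the 4 sampling times fewer genes changed from 92 h to 144 h than in the step before it. Fitted over all 16 arrays and 6125 genes, 4030 genes (65.8%) changed from 22 h to 92 h, 36.3% of all genes up and 29.5% down. From 92 h to 144 h 966 (15.8%) changed, 6.5% up and 9.27% down, and from 144 h to 187 h 688 (11.2%) changed, 5.67% up and 5.57% down. Neighbouring steps share the arrays of the time between them, so their values are given side by side and not as independent evidence. The test of the difference itself called 2170 genes (35.4%) for the step to 144 h less the step to 92 h, 811 higher and 1359 lower. For the step to 144 h less the step to 187 h it called 0, with 254 at an unadjusted p under 0.05 and a smallest adjusted p of 0.0965, and 1 and 2 genes with quantile and normexp scaling.

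Genes turned or slowed at 92 h in several ways. Those taken for the smallest p of a difference of steps came only from genes called from 92 h to 144 h. That call uses the same arrays of 92 h and 144 h as the difference, so the 2 are not separate evidence. HMG1 fell by 3.14 from 22 h to 92 h and rose by 1.55 in the next step (difference 4.68, adjusted p = 8.85e-07), and the change from 144 h to 187 h was -0.05. AGP1 fell by 1.54 and rose by 1.94 (difference 3.48, adjusted p = 7.76e-06), and then had a change of 0.08. CYC1 likewise fell by 1.14 before it rose. MUP1 fell by 2.68 and rose by 0.42, and ARO5 fell by 1.75 and rose by 0.98. Other genes rose steeply up to 92 h and little afterwards. SPG1 rose by 6.12 and then by 0.81 (difference -5.31, adjusted p = 1.07e-06), YBL065W by 4.83 and then by 0.59, and the inhibitor of glycogen debranching IGD1 by 4.16 and then by 0.48, a call that ended without the second control array of 92 h. PHO3 fell by 3.56 and then by 0.74. RPL3 fell by 1.27 and then by 0.60, and RPL8A fell by 0.68, 1.17 and 0.78 in the 3 steps and TDH3 by 2.06, 1.43 and 1.03.

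MTR4 passed in this step and not in the others. It had steps of 0.16, 1.96 and 0.20, and differed from the step before by 1.80 (adjusted p = 0.000627) and from the step after by 1.76 (adjusted p = 0.0965, which did not pass). NDE1 rose in each step, by 0.75, 2.19 and 1.14, and HXT16 by 1.03, 3.07 and 1.53. SSA2 fell by 2.27 and 0.60 and then rose by 1.13. EDC1, an activator of decapping, had steps of -0.17, 0.33 and 1.15, and its call at 144 h ended without the first control array of 144 h or the second of 92 h. HMS1, a transcription factor gene, fell by 0.55 and rose by 0.61 in the next step.

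**Figure D5:**
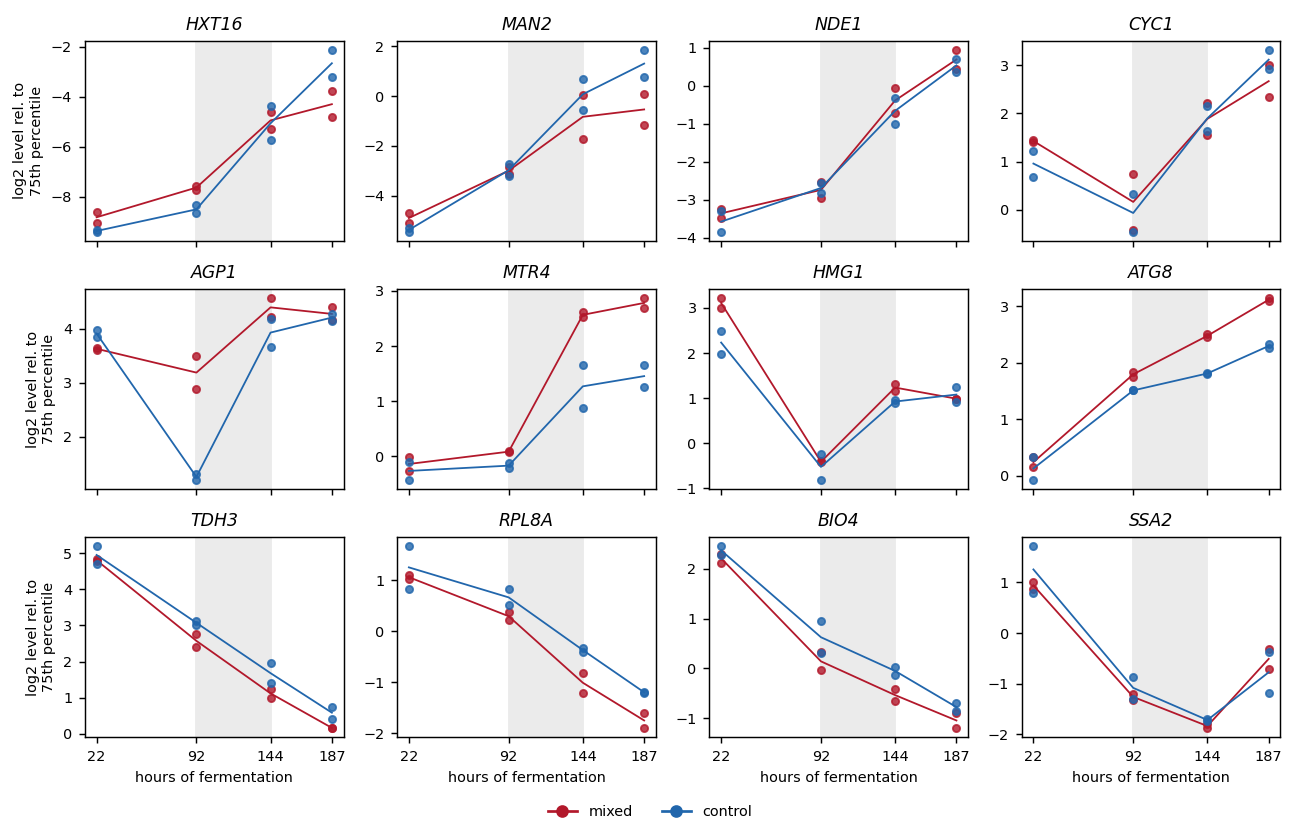
Levels of 12 genes at 22, 92, 144 and 187 h, as log2 signal minus that array's 75th percentile. Points are single arrays, lines join the means of 2 arrays of mixed (red) and control (blue) fermentations, and the shaded band is the step from 92 h to 144 h. MTR4 rises within the band by 1.96, while TDH3 falls across all 3 steps.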

How the data were processed

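Total RNA with a one-color spike-in was measured on 16 Agilent arrays, per the labels, and the 8 arrays of 92 h and 144 h were compared. The deposited intensities, background-subtracted processed signals on a linear scale, were made by the authors with Feature Extraction 10.7.3.1, per the file headers. A deposited table of log2 values of the same arrays served as an alternative. In it at least 99.58% of probes lay within 0.05 of log2 of the processed signal plus a constant per array. The build and probe mapping beyond the array design are not given in the sources used here, and gene names come from the array design and the RefSeq table, which matched 5756 probes and not 500. Neighbouring genes are neighbours in that RefSeq table. Whether probe targets, gene copies and gene order are the same in Lalvin EC1118 was not checked, so probes may also read related genes there.

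Outlier spots were left out, the 2 spots of a probe averaged, log2 taken and each array's 75th percentile subtracted. Probes flagged above background on fewer than 2 of the 8 arrays were dropped, 174 in all. The fit (limma 3.58.1 in R 4.3.3) had kind of fermentation and time as terms, 5 residual and 4.28 prior degrees of freedom, and Benjamini-Hochberg adjustment over 6082 genes with a threshold of 0.05. Differences between kinds used 4 group means, and steps used 8 group means over 16 arrays. The number of arrays limits the precision. The script was tested on simulated data. Genes named are, per direction, the 12 largest changes among passing genes with a symbol whose times did not overlap, the 3 largest such reading frames without a symbol and up to 3 dim probes. To these come up to 4 members per direction of smallest p from each list described (of 55 lists), the 5 of smallest p per direction for each difference, and preset genes of interest. For differences of steps the 5 were taken only among genes called from 92 h to 144 h. HXT13, SOR1, SOR2 and PDR18 were chosen after their values were seen. The members and lists were chosen with earlier results of these data known. Alternatives were other scalings, filters, blocks and single arrays left out.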

Additional observations from a re-analysis of the deposited data

Results flagged for a closer look

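The 5 genes described here had opposite steps in the 2 kinds of fermentation on every pair of arrays, as did 60 of 6082 genes (0.987%) in all. The difference of the steps was tested in limma and passed for none of them. The repressor gene DAL80, of nitrogen use, had a step of 0.72 in mixed and -0.19 in control fermentations, a difference of 0.91 ± 0.18 (adjusted p = 0.999). The ammonium permease gene MEP2 had steps of 0.47 and -0.36, a difference of 0.83 ± 0.23 (adjusted p = 0.999). The peptide transporter gene PTR2 had steps of 0.47 and -0.19, a difference of 0.67 ± 0.16 (adjusted p = 0.999). The ubiquitin-conjugating enzyme gene UBC11 went the other way, with -0.39 and 0.48, a difference of -0.86 ± 0.21 (adjusted p = 0.999). YBR209W, whose probe was well above background on 2 arrays of each time, had steps of 1.12 and -1.17, a difference of 2.29 ± 0.26 (adjusted p = 0.112). Kind of fermentation and slide row cannot be told apart, and each step rests on 2 arrays against 2.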

How the results depend on the processing

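All 1694 genes called from 92 h to 144 h had the same sign on each slide alone, a comparison of values with no test. Their number was 1522 to 1763 with median, quantile or normexp scaling, the deposited table, either other filter or a trended variance. It was 368 with spike-in scaling, 966 with group means over all 16 arrays and 478 at an adjusted p under 0.01, and 780 to 1684 with 1 array left out. With the replicate number, which is the slide, as a block it was 2048, and 1943 with a block by vessel. Replicate 1 deviations of the groups correlated by 0.084 to 0.339 over 6 pairs of groups, and the labels state no pairing. The mixed step (355) gave 30 with spike-in scaling, 160 with no filter, 876 with the replicate block, 200 over 16 arrays, 544 with a trended variance and 0 to 229 with 1 array left out. The control step (45) gave 20, 12, 187 and 71 under the first 4 of these and 0 to 80 with 1 array left out. The difference between kinds (0) gave 0 with the block and 0 to 1 with 1 array left out. The step to 144 h less that to 92 h (2170) gave 1338 with spike-in scaling and 1325 to 2301 with 1 array left out. Less the step to 187 h (0) it gave 1 with quantile and 2 with normexp scaling, and 0 to 4 with 1 array left out. The causes were not tested.

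Of the 134 named genes that passed, 50 no longer passed with spike-in scaling and 12 with group means over all 16 arrays. Over all genes, 60 that passed in the main fit had the other sign with spike-in scaling, and 0 passed in the opposite direction. Of the genes named, those whose change turned sign had not passed. With spike-in scaling the changes were -0.105 for ADH1, -0.12 for CTT1, -0.03 for DAL80, -0.237 for MEP2, -0.04 for PRB1, -0.156 for PTR2, -0.281 for SPS100 and -0.252 for UBC11. GAP1 was 0.019 with median and 0 with normexp scaling, UBC11 -0.144 with quantile and -0.033 with normexp scaling, and YBR209W 0.031 with median scaling. With 1 array left out the changes ranged from -0.235 to 0.096 (GAP1), -0.557 to 0.017 (HSP12), -0.198 to 0.036 (IME1), -0.106 to 0.15 (MEP2), -0.192 to 0.158 (PAU5), -0.26 to 0.291 (SPS100), -0.25 to 0.072 (SUC2), -0.084 to 0.191 (UBC11) and -0.348 to 0.218 (YBR209W).

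Probes near background limit the low-level transporters, and no alternative separates time from slide column.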
